A study of Rattus norvegicus with 224 samples.

Results

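Thbd, F3 and Serpine2 encode proteins that set how readily blood clots on a vessel wall, and each was measured by 1 probe on 224 arrays of cultured rat aortic smooth muscle cells. The members were the probes whose platform annotation gave exactly those gene symbols, 3 of 6502 named genes among 11575 probes in the deposited table. They were chosen on scores of these same arrays, namely on Thbd being low under rapamycin at 24 h, on F3 being low under 1000 ng/mL paclitaxel at 24 h, and on Serpine2 being low at 24 h relative to 6 h and lowest under rapamycin. Those contrasts, all contrasts correlated with them, and for Thbd and Serpine2 every drug contrast that holds rapamycin arrays at 24 h, are given below as descriptions without a p-value. The rule itself has no threshold on values.

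Thbd encodes thrombomodulin, the cell-surface receptor that turns thrombin from a clotting enzyme into an activator of the anticoagulant protein C, and it is best known on endothelium. Serpine2 encodes protease nexin-1, a serpin that inhibits thrombin, urokinase and plasmin at the cell surface. F3 encodes tissue factor, the membrane protein that binds factor VIIa and starts coagulation. In the vessel wall tissue factor is held by smooth muscle and adventitial cells, where it meets blood only after injury. Rapamycin, an inhibitor of mTOR complex 1, and paclitaxel, which stabilises microtubules, are both used as coatings on coronary stents.

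The cells came from the aortas of newborn rats, 1 day of age, and were used at passage 8 to 11 after growth arrest in reduced serum. They received rapamycin at 0.01, 1 or 100 ng/mL, paclitaxel at 0.01, 1 or 1000 ng/mL, or the solvent DMSO. Each of these 7 drug conditions was combined with 100 nM insulin or its PBS vehicle, with 25 or 5 mM glucose, and with harvest at 24 or 6 h. Glucose was set 24 h before treatment and insulin was given 30 min before the drug. The 56 groups held 4 arrays each, from runs labelled A to D. The title of an array of run A with 100 ng/mL rapamycin and insulin at 24 h breaks off within its glucose level. It was placed in 25 mM glucose by the number in that title, which arrays of runs B to D share. The labels and the design text differ on dish size, serum level and length of growth arrest. All arrays carried the same kind of reference, RNA pooled from whole 1-day-old pups. No label says whether the runs came from separate cultures or animals, so the p-values below measure only the spread between these arrays.

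The values are standardized scores. Each array had mean 0 and SD 1 over its probes, and each probe was centred near 0 over the arrays (probe means -0.207 to 0.217). A score of 1 is therefore 1 array SD and not a log2 fold change, and a probe's level says nothing of its abundance relative to another gene. The dyes make a higher score likely to mean more RNA in the smooth muscle cells relative to the pup reference. Neither the scale nor the direction of the deposited values was stated, and with the sign turned every direction below would turn together. The lowest correlation between 2 arrays was -0.526, and 1.46% of array pairs lay under -0.3. The insulin and vehicle arrays of run A with 0.01 ng/mL rapamycin, 25 mM glucose and 6 h were nearly identical (r = 0.99993, 99.4% of values within 0.01). Whether 1 array was deposited under both labels was not tested. Leaving them out, together with 2 arrays titled as repeats, ended 1 call on the members, that of F3 for glucose at 6 h. Cell identity could not be checked from levels, since the probes were centred. Of the marker lists, 10 of 13 smooth muscle, 9 of 14 endothelial, 5 of 11 leukocyte and 5 of 9 fibroblast genes were measured.

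On the GRCr8 rat assembly, RefSeq places Thbd at chr3:156316526-156320178, F3 at chr2:212511675-212523375 and Serpine2 at chr9:88573138-88637252. The position of each probe within its transcript was not used here. RefSeq's table of promoter windows matched 1 of the 3 members, Serpine2. That window is shown because the other members had none, and it covers chr9:88637153-88637452 on the minus strand of GRCr8. Capitals mark every match to the GC box GGGCGG or its reverse complement.
Serpine2: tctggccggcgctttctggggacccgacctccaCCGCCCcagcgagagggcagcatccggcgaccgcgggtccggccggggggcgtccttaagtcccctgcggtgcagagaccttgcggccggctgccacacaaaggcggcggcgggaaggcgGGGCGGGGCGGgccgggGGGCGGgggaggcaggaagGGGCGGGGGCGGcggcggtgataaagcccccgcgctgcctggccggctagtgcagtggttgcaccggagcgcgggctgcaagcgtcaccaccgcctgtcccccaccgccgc
The window has 77% G and C, against a median of 51.7% over RefSeq's rat promoter windows, and 97.9% of the windows had a lower content. GGGCGG matched 5 times on the forward strand and 1 time on the reverse strand, overlaps allowed, over 35 bases in all. Of 33469 windows, 33.1% held this motif on either strand. The Serpine2 window held no match on either strand to the Krüppel-type box CACCC (present in 54.9% of windows), the AP-1 site TGANTCA (7.33%), the forkhead site GTAAACA (3.78%), the E box CACGTG (6.42%) or the TATA box TATAAA (14.2%). The matches describe letters in this window only.

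**Figure D1:**
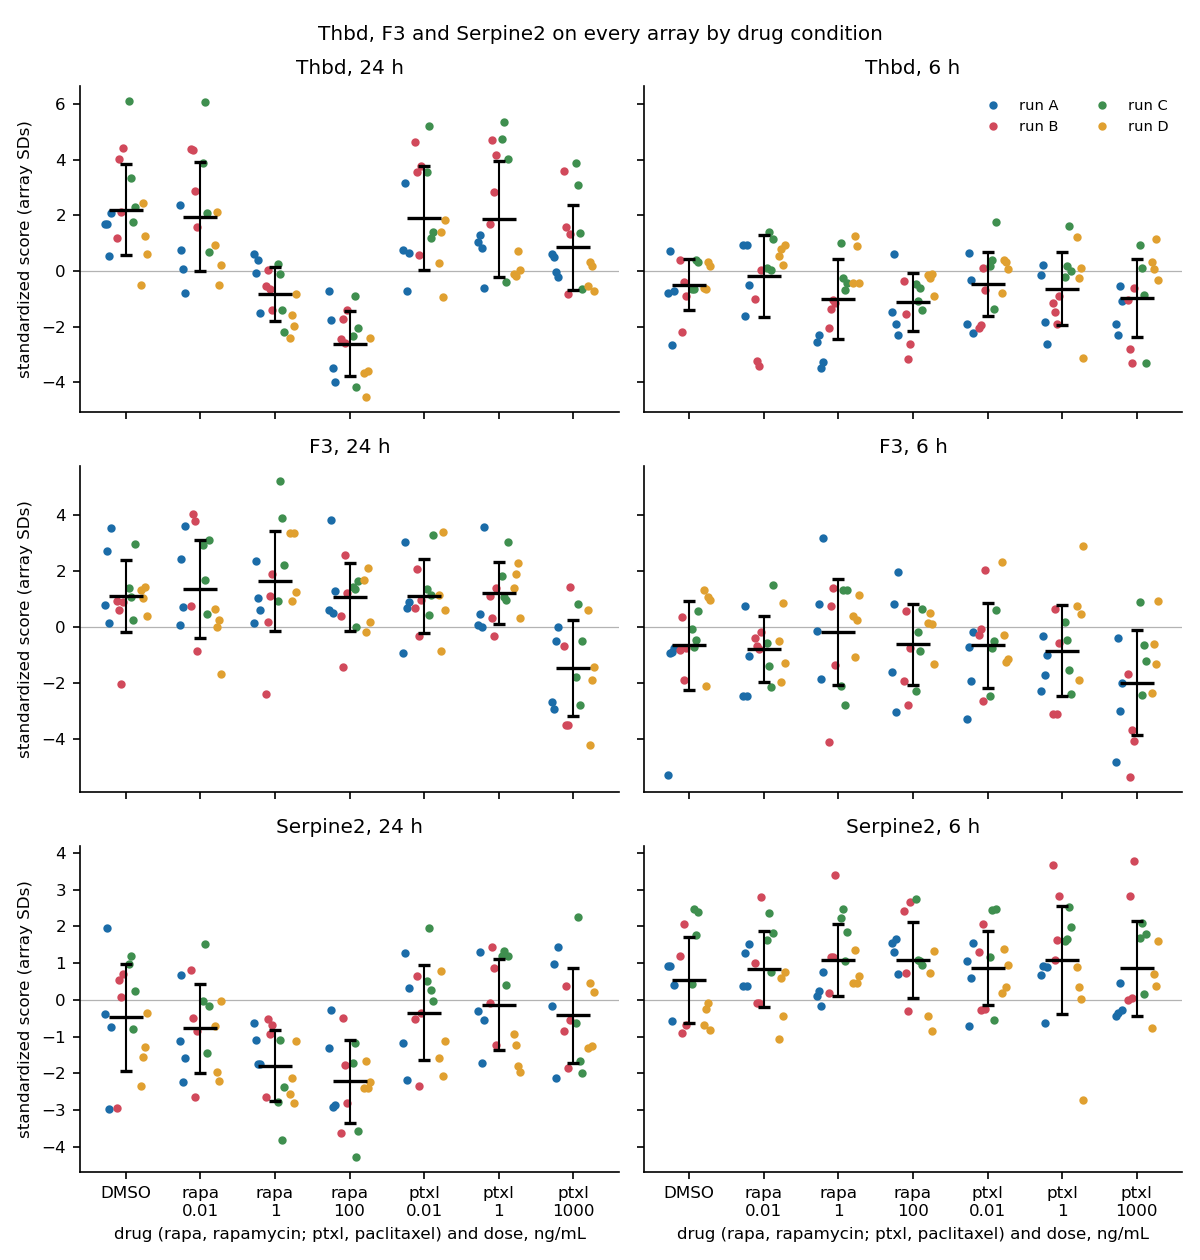
Standardized score (array SDs, vertical axis) of each gene on every array, by drug condition (doses in ng/mL, horizontal axis), at 24 h in the left panels and 6 h in the right panels. Points are arrays coloured by run and black marks are means ± SD over 16 arrays. At 24 h the Thbd points of 100 ng/mL rapamycin all lie below the DMSO points, and the F3 points of 1000 ng/mL paclitaxel centre on -1.48, against 1.09 in DMSO.

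Thbd had the widest spread of mean scores over the drug conditions and hours among the 3 members. At 24 h its scores in DMSO cells spanned -0.485 to 6.12 with a median of 1.93. With 0.01 ng/mL rapamycin they spanned -0.778 to 6.09 with a median of 1.83. With 1 ng/mL they spanned -2.41 to 0.607 with a median of -0.726, and with 100 ng/mL they spanned -4.52 to -0.719 with a median of -2.43. The scores thus stepped down between 0.01 and 1 ng/mL and again at 100 ng/mL, where no array reached the lowest DMSO array. The score of -0.719 came from the array whose title breaks off. Its scores were deposited with more decimals than those of the other arrays.

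Mean Thbd scores were -2.61 ± 1.18 with 100 ng/mL rapamycin and 2.20 ± 1.64 with DMSO at 24 h (SD, n = 16 each), a difference of -4.81 ± 0.477 (SE). All 16 pairs of arrays matched for run, insulin and glucose had this direction, and the 4 runs gave differences of -3.99, -4.98, -5.74 and -4.51. In this contrast 2.25% of all probes were called at an adjusted p under 0.05 by limma, the threshold used throughout. Among called probes with a gene symbol, Thbd had the largest fall in this contrast, which is one reason it was chosen. At 1 ng/mL the mean was -0.830 ± 0.966, a difference of -3.03 from DMSO with the same direction in 16 of 16 pairs. At 0.01 ng/mL the difference was -0.251, with an interval of -1.19 to 0.69 and the same direction in 9 of 16 pairs. The step between 100 and 1 ng/mL was -1.78 (15 of 16 pairs).

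The Thbd difference under 100 ng/mL rapamycin was present in each combination of insulin and glucose. With insulin and 25 mM glucose it was -4.42, with insulin and 5 mM glucose -5.11, with vehicle and 25 mM glucose -4.88, and with vehicle and 5 mM glucose -4.82. In none of the 4 combinations did rapamycin and DMSO arrays overlap. In vehicle and 5 mM glucose, for example, runs A to D scored -3.99, -1.39, -2.05 and -2.42 with rapamycin, against 2.10, 4.43, 2.31 and 0.611 with DMSO. At 1 ng/mL the differences were -2.65 with insulin and 25 mM glucose, where the arrays overlapped, and -3.30, -2.33 and -3.83 in the other combinations, where they did not.

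With paclitaxel the Thbd differences at 24 h were smaller in size. With 1000 ng/mL the scores spanned -0.831 to 3.90 with a median of 0.431, and the mean of 0.847 ± 1.53 lay 1.35 below DMSO (difference -1.35 ± 0.477, interval -2.29 to -0.41, 15 of 16 pairs). The arrays of the 2 conditions overlapped widely. At 1 and 0.01 ng/mL the differences from DMSO were -0.315 and -0.302. The contrast of 1000 with 0.01 ng/mL, which was independent of those that chose Thbd, gave -1.05 with an adjusted p of 0.353 by limma. Within the combinations the difference of 1000 ng/mL from DMSO ran from -0.229 with insulin and 25 mM glucose to -2.42 with vehicle and 5 mM glucose, and the arrays overlapped in all 4.

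At 6 h the Thbd differences between drug conditions, averaged over insulin and glucose, were smaller in size than those with 1 and 100 ng/mL rapamycin at 24 h. With 100 ng/mL rapamycin the scores spanned -3.17 to 0.607 with a median of -0.995, against -2.65 to 0.717 with a median of -0.627 in DMSO. The difference was -0.618 ± 0.477, with an interval of -1.56 to 0.324. Within the combinations it was 0.118 with insulin and 5 mM glucose, -0.193 with insulin and 25 mM glucose, -0.871 with vehicle and 25 mM glucose and -1.52 with vehicle and 5 mM glucose. Only in the last did the arrays not overlap, spanning -2.62 to -0.908 with rapamycin, against -0.883 to 0.317 with DMSO. The differences from DMSO were -0.520 with 1 ng/mL rapamycin (-0.0171 without run A) and -0.476 with 1000 ng/mL paclitaxel. The contrast of 1 with 0.01 ng/mL rapamycin at 6 h could be tested and gave -0.843, with an adjusted p of 0.481 by limma, and was -0.652 without the 2 nearly identical arrays.

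Ordered by mean score over the 14 combinations of drug condition and hour, Thbd was highest in DMSO cells at 24 h, followed by the low doses of both drugs and 1000 ng/mL paclitaxel at 24 h, then all 6 h conditions mixed with 1 ng/mL rapamycin at 24 h. It was lowest with 100 ng/mL rapamycin at 24 h. Of the gaps between neighbours in that order, only the last, 1.50 between 100 ng/mL rapamycin at 24 and 6 h, exceeded the pooled SD of its 2 conditions (1.11). No gap between neighbours did so for F3 or Serpine2. For F3 the widest was 1.25 (pooled SD 1.59), and for Serpine2 it was 1.01 (pooled SD 1.09), between 0.01 and 1 ng/mL rapamycin at 24 h.

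Serpine2, the thrombin-inhibiting serpin, was also lower with rapamycin at 24 h, by less than Thbd on this scale. Its scores in DMSO cells at 24 h spanned -2.97 to 1.95 with a median of -0.370. With 1 ng/mL rapamycin they spanned -3.80 to -0.523 with a median of -1.74, and with 100 ng/mL -4.27 to -0.28 with a median of -2.31. The DMSO and rapamycin arrays overlapped at both doses, although every rapamycin array at 1 and 100 ng/mL lay below 0.

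Mean Serpine2 scores at 24 h were -2.22 ± 1.12 with 100 ng/mL rapamycin and -0.476 ± 1.46 with DMSO (SD, n = 16 each). The difference was -1.74 ± 0.352, in 15 of 16 pairs, and the runs gave -1.31, -1.77, -3.09 and -0.791. Run C had the widest gap, and without it the difference was -1.29. At 1 ng/mL the difference from DMSO was -1.31 (14 of 16 pairs; -0.776 without run C), and at 0.01 ng/mL it was -0.3 (interval -0.995 to 0.395). Within the combinations the difference of 100 ng/mL from DMSO was -1.08 with insulin and 25 mM glucose, -1.44 with insulin and 5 mM glucose, -1.60 with vehicle and 25 mM glucose and -2.84 with vehicle and 5 mM glucose. Only in the last did the arrays not overlap.

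With paclitaxel the mean Serpine2 scores at 24 h were -0.351, -0.131 and -0.417 at 0.01, 1 and 1000 ng/mL, near that of DMSO. The difference of 1000 ng/mL from DMSO was 0.059 with an interval of -0.636 to 0.754. At 6 h the mean Serpine2 scores of the 7 drug conditions lay between 0.537 in DMSO and 1.09, and the difference of 100 ng/mL rapamycin from DMSO was 0.548 ± 0.352 (0.832 without run C), in the opposite direction to that at 24 h.

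F3, which encodes tissue factor, did not follow the rapamycin pattern. At 24 h its scores with 1000 ng/mL paclitaxel spanned -4.21 to 1.42 with a median of -1.62, and with 100 ng/mL rapamycin -1.44 to 3.82 with a median of 1.24. In DMSO cells they spanned -2.04 to 3.55 with a median of 0.98. The paclitaxel arrays were centred below the other conditions but their upper end overlapped the DMSO arrays.

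Mean F3 scores at 24 h were -1.48 ± 1.71 with 1000 ng/mL paclitaxel and 1.09 ± 1.29 with DMSO (SD, n = 16 each). The difference was -2.57 ± 0.536, in 15 of 16 pairs, and the runs gave -3.33, -1.66, -2.50 and -2.78. Of all probes, 1.32% were called in this contrast, and F3 had the fifth largest fall among called probes with a symbol. At 1 and 0.01 ng/mL paclitaxel the differences from DMSO were 0.115 and 0.003, both smaller than the SE of 0.536. Between 1000 and 1 ng/mL the difference was -2.68 (15 of 16 pairs).

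Within the combinations, F3 with 1000 ng/mL paclitaxel differed from DMSO by -2.25 with insulin and 25 mM glucose, where the arrays did not overlap. The differences were -3.82 with insulin and 5 mM glucose, -2.12 with vehicle and 25 mM glucose and -2.08 with vehicle and 5 mM glucose, with overlapping arrays in each. Markers of smooth muscle moved in the same contrast: 4 of 10 were called lower and 0 higher, with a median difference of -0.916. Their part in the F3 difference was not tested. In these bulk samples fewer cells of a kind and less RNA per cell cannot be told apart.

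With rapamycin the F3 score at 24 h differed from DMSO by -0.022 at 100 ng/mL (interval -1.08 to 1.04), 0.536 at 1 ng/mL and 0.274 at 0.01 ng/mL. At 6 h the F3 contrasts could be tested. The scores with 1000 ng/mL paclitaxel spanned -5.37 to 0.904 with a mean of -2.0 ± 1.87, against -5.30 to 1.30 with a mean of -0.662 ± 1.59 with DMSO (SD). The difference of -1.34 ± 0.536 had an interval of -2.39 to -0.277 and an adjusted p of 0.458 by limma, with the direction in 12 of 16 pairs. Without run B it was -0.803. It did not pass the test, in a contrast in which 0.294% of probes did. The 100 ng/mL rapamycin difference at 6 h was 0.028 with an adjusted p of 0.99 by limma.

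**Figure D2:**
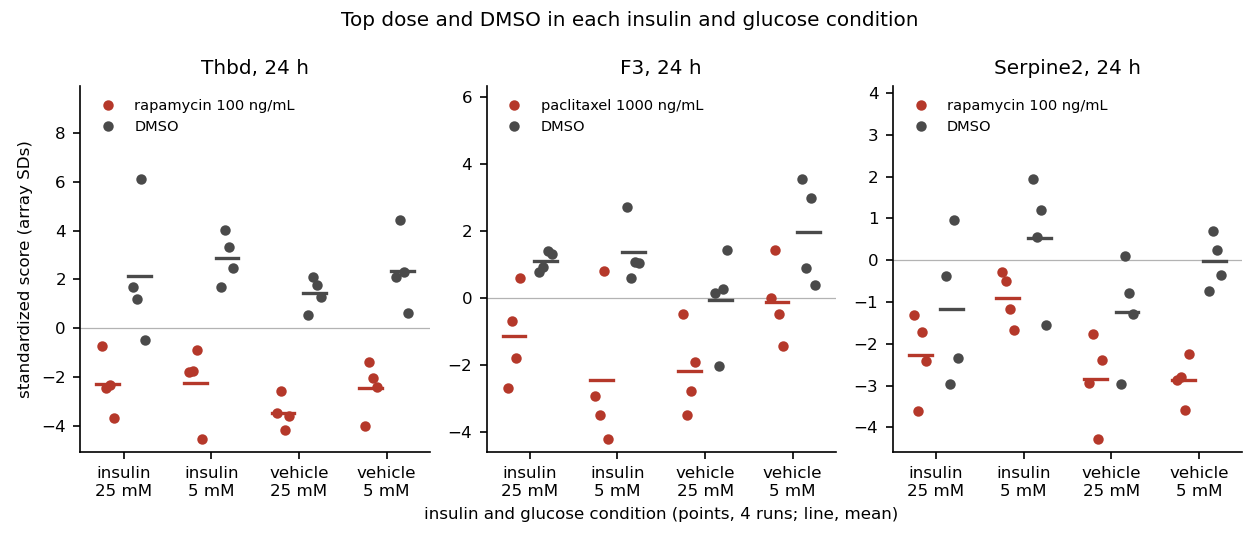
Standardized scores (array SDs, vertical axis) at 24 h in the 4 combinations of insulin and glucose, for Thbd and Serpine2 with 100 ng/mL rapamycin beside DMSO and for F3 with 1000 ng/mL paclitaxel beside DMSO. Points are the 4 runs and lines are means. Thbd arrays of the drug and DMSO do not overlap in any combination, while Serpine2 separates only in vehicle with 5 mM glucose and F3 only in insulin with 25 mM glucose.

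Setting the drugs against each other at 24 h placed the anticoagulant genes and F3 on opposite sides. At the top doses, which differ between the drugs (100 ng/mL rapamycin and 1000 ng/mL paclitaxel), the differences of rapamycin minus paclitaxel were -3.46 for Thbd (16 of 16 pairs), -1.80 for Serpine2 (15 of 16) and 2.55 for F3 (15 of 16). These 3 values share their arrays with the contrasts that chose the members and are descriptive. In that contrast 6.62% of probes were called, and 3 of 10 smooth muscle markers were called higher with a median difference of 0.614, on the same side as F3. Their part in the F3 difference was not tested. At the matched dose of 1 ng/mL the Thbd difference was -2.71 (16 of 16 pairs) and the F3 difference 0.421 (interval -0.637 to 1.48).

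For Serpine2 the matched contrast at 1 ng/mL holds rapamycin arrays at 24 h, on which it was chosen, and is descriptive too. Its scores spanned -3.80 to -0.523 with rapamycin, against -1.95 to 1.43 with a median of -0.203 with paclitaxel. The difference of rapamycin minus paclitaxel was -1.66 ± 0.352 (SE), with the direction in 14 of 16 pairs. The runs gave -0.980, -1.43, -3.53 and -0.682, and without run C the difference was -1.03. At 0.01 ng/mL the Serpine2 difference was -0.425.

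Hour of harvest separated the members. Thbd in DMSO cells was higher at 24 h than at 6 h by 2.69 ± 0.477, in 16 of 16 pairs, in a contrast that called 7.24% of probes. The hour difference was 2.12 with 0.01 ng/mL rapamycin (2.31 without the nearly identical arrays), 0.182 with 1 ng/mL and -1.50 with 100 ng/mL (12 of 16 pairs), so that the dose series changed sign. Without run D the value at 100 ng/mL was -0.934. With 0.01 and 1 ng/mL paclitaxel it was 2.35 and 2.52. With 1000 ng/mL paclitaxel, the one hour contrast independent of those that chose Thbd, the means were 0.847 at 24 h and -0.967 at 6 h. Thbd rose there by 1.81 ± 0.477, with an adjusted p of 0.00583 by limma and the direction in 13 of 16 pairs, where 8.34% of probes were called. Run D went the other way (-0.482, against 1.68, 3.36 and 2.70 in runs A, B and C). Without run B the value was 1.30 with an adjusted p of 0.108, without run C it was 1.52 with an adjusted p of 0.105, and with runs as the unit the adjusted p was 0.193.

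F3 was the member whose hour contrast over all conditions could be tested. Its scores at 24 h had a median of 0.905 and a mean of 0.850 ± 1.74, against a median of -0.743 and a mean of -0.830 ± 1.64 at 6 h (SD, n = 112 each). The 2 sets of arrays overlapped over most of their range. F3 rose by 1.68 ± 0.203, with an adjusted p of 7.97e-13 by limma, and 90 of 112 pairs had the direction. The contrast called 41.3% of all probes, so a call in it is common. The runs gave 2.17, 1.67, 2.09 and 0.797, and with runs as the unit the adjusted p was 0.0416. With 100 ng/mL rapamycin F3 rose by 1.70 ± 0.536 (adjusted p 0.0252 by limma, 13 of 16 pairs), where 9.71% of probes were called. Without run A, B or C that value was 1.59, 1.63 or 1.67, with adjusted p-values of 0.106, 0.0954 and 0.119. The F3 hour difference was 0.516 with 1000 ng/mL paclitaxel (-0.0252 without run B to 0.984 without run D) and 1.75 in DMSO cells (1.07 without run A).

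Serpine2 was lower at 24 h than at 6 h in every drug condition. Over all conditions the medians were -0.921 at 24 h and 0.908 at 6 h, and the difference was -1.79 ± 0.133 in 96 of 112 pairs. It was -1.01 in DMSO cells, -1.62, -2.88 and -3.30 with 0.01, 1 and 100 ng/mL rapamycin, and -1.21, -1.22 and -1.27 with 0.01, 1 and 1000 ng/mL paclitaxel. At 100 ng/mL rapamycin all 16 pairs had the direction, and at 1 ng/mL the 24 and 6 h arrays did not overlap. In the hour contrast over all conditions, 6 of 10 smooth muscle markers and 1 of 9 endothelial markers were called lower, while 1 of 5 leukocyte and 2 of 5 fibroblast markers were called higher, where 41.3% of all probes were called. The smooth muscle markers were above that share and the other 3 lists were not. Their part in the hour differences of the members was not tested.

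The hour differences with and without rapamycin were also compared directly. The difference between 24 and 6 h with 100 ng/mL rapamycin minus that with DMSO was -4.19 ± 0.674 for Thbd, -2.29 ± 0.498 for Serpine2 and -0.050 ± 0.758 for F3. This contrast called 0.095% of probes, and Thbd and Serpine2 were among those that led to their choice. With 1 ng/mL rapamycin the values were -2.51 for Thbd and -1.86 for Serpine2.

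Both anticoagulant members rose with insulin at 24 h. Thbd scores with insulin spanned -4.52 to 6.12 with a median of 1.11, against -4.17 to 4.43 with a median of 0.132 with vehicle. The means were 1.38 ± 2.49 with insulin and 0.143 ± 2.00 with vehicle (SD, n = 56 each), and the arrays overlapped over most of their range. Thbd rose by 1.24 ± 0.255, with an adjusted p of 0.000559 by limma, in a contrast that called 3.98% of probes, and 41 of 56 pairs had the direction. The difference was positive in all 7 drug conditions, lowest in DMSO cells (0.609) and highest with 0.01 ng/mL rapamycin (2.33). It was 1.27 in 25 mM glucose and 1.21 in 5 mM glucose.

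The Thbd response to insulin differed between runs, at 1.34, 0.873, 2.73 and 0.0116 in runs A to D. Without run C it was 0.741 with an adjusted p of 0.45, and with runs as the unit the adjusted p was 0.463. In DMSO cells alone the value of 0.609 had an adjusted p of 0.999 by limma. That contrast called 0 of all probes, and 410 had an unadjusted p under 0.05.

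Serpine2 with insulin spanned -3.62 to 2.26 with a median of -0.505, against -4.27 to 1.45 with a median of -1.50 with vehicle. Its means were -0.433 ± 1.40 with insulin and -1.33 ± 1.29 with vehicle (SD, n = 56 each). Serpine2 rose by 0.894 ± 0.188, with an adjusted p of 0.000732 by limma and the direction in 44 of 56 pairs. The difference was positive in all 7 drug conditions, between 0.222 with 1 ng/mL rapamycin and 1.27 with 100 ng/mL. The runs gave 1.52, 0.427, 1.53 and 0.0927. Without run A it was 0.685 with an adjusted p of 0.196, without run C 0.680 with an adjusted p of 0.213, and with runs as the unit the adjusted p was 0.463. Of the measured markers, limma called 0 in each of the 4 lists in this contrast. At an unadjusted p under 0.05 it gave 1 of 10 smooth muscle, 0 of 9 endothelial, 1 of 5 leukocyte and 0 of 5 fibroblast genes. Over all 11575 probes it gave 1726 at that threshold.

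F3 scores did not pass the test for insulin at 24 h, with a difference of -0.234 ± 0.286, an interval of -0.799 to 0.331 and an adjusted p of 0.802 by limma. At 6 h, where 7.07% of probes were called, no member was. The insulin differences were then 0.274 for Thbd (adjusted p 0.619), -0.232 for F3 (adjusted p 0.726) and 0.030 for Serpine2 (adjusted p 0.963), all by limma.

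In 25 mM glucose Serpine2 fell at 24 h and F3 fell at 6 h. Serpine2 in 25 mM glucose at 24 h spanned -4.27 to 1.18 with a median of -1.50, against -3.57 to 2.26 with a median of -0.420 in 5 mM glucose. The means were -1.41 ± 1.26 in 25 mM and -0.352 ± 1.37 in 5 mM glucose (SD, n = 56 each), again with a wide overlap. Serpine2 fell by 1.06 ± 0.188, with an adjusted p of 1.04e-05 by limma and the direction in 47 of 56 pairs. In this contrast 10% of probes were called. The runs gave -1.43, -1.01, -0.933 and -0.84, and with runs as the unit the adjusted p was 0.124. The difference was negative in all 7 drug conditions, between -0.336 with 1 ng/mL paclitaxel and -1.63 with 1000 ng/mL paclitaxel. It was -1.23 with insulin and -0.885 with vehicle. In DMSO cells alone it was -1.46 with the direction in 8 of 8 pairs and an adjusted p of 0.153 by limma.

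Among the marker genes, 1 of 10 smooth muscle and 1 of 5 leukocyte genes were called higher in 25 mM glucose at 24 h. Of the 9 endothelial and 5 fibroblast genes, 0 were called. In this contrast 10% of all probes were called, so the marker counts lie near the share over all probes. The part of the markers in the Serpine2 difference was not tested. Thbd differed by -0.432 (adjusted p 0.313 by limma) and F3 by -0.439 (adjusted p 0.375) in that contrast. The F3 value rested on single runs: it was -1.13 without run D (adjusted p 0.0136 by limma), 0.00536 without run A (0.996) and -0.218 without run C (0.8).

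F3 in 25 mM glucose at 6 h spanned -5.30 to 2.32 with a median of -1.44, against -5.37 to 3.16 with a median of -0.437 in 5 mM glucose. The means were -1.33 ± 1.62 in 25 mM and -0.332 ± 1.52 in 5 mM glucose (SD, n = 56 each). F3 fell by 0.995 ± 0.286, with an adjusted p of 0.0252 by limma and the direction in 38 of 56 pairs, where 3.53% of probes were called. The difference was negative in all 7 drug conditions, between -0.179 with 1000 ng/mL paclitaxel and -1.88 with 1 ng/mL rapamycin. The runs gave -2.51, -1.17, -0.841 and 0.534, so run D had the opposite sign. The call was lost without run A (-0.491, adjusted p 0.611), without run B (-0.938, 0.114), without run C (-1.05, 0.0967) and with runs as the unit (0.241), and without run D the value was -1.50 (0.000693). It was also lost without the repeat and nearly identical arrays (-0.925, adjusted p 0.0554). Thbd (0.117, adjusted p 0.9 by limma) and Serpine2 (-0.422, adjusted p 0.246) did not pass the test at 6 h.

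**Figure D3:**
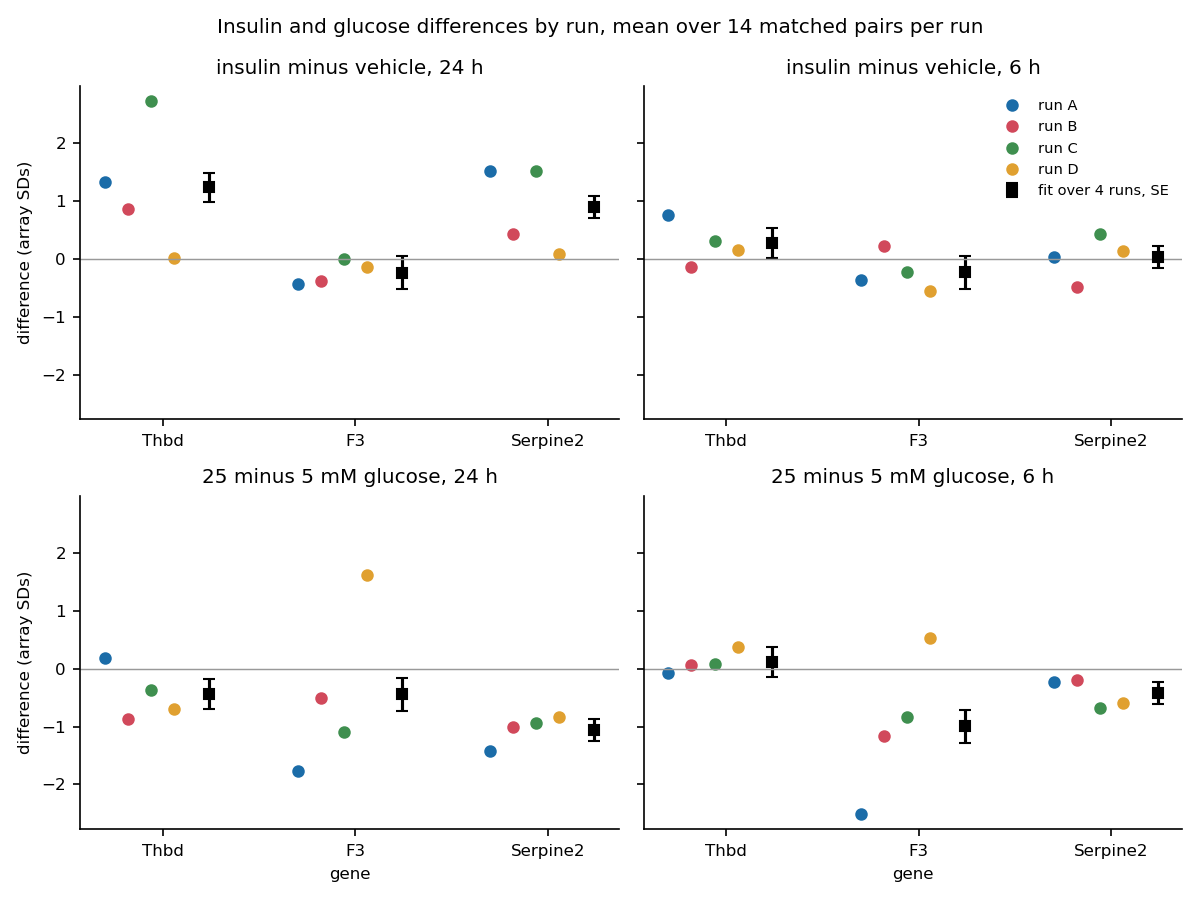
Differences in standardized score (array SDs, vertical axis) for insulin minus vehicle and for 25 minus 5 mM glucose, at 24 h on the left and 6 h on the right, for each gene. Coloured points are the means of each run over its 14 pairs, and black squares are the fitted difference ± SE. Run D lies near 0 for both insulin differences at 24 h (0.0116 for Thbd, 0.0927 for Serpine2), while all 4 runs lie below 0 for Serpine2 and glucose at 24 h.

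Whether a drug altered the insulin or glucose response of a member was tested by 8 interaction terms per gene. No member was called in any of them or in the 2 terms for insulin by glucose. Each of these terms called 0 of all probes, so the lack of calls does not set the members apart. At 24 h the insulin response with 100 ng/mL rapamycin minus that with DMSO was 0.089 ± 0.953 for Thbd and 0.962 ± 0.704 for Serpine2, each with an adjusted p of 1 by limma. Limma called 0% of probes in that contrast, where 375 had an unadjusted p under 0.05. The intervals were wide, -1.79 to 1.97 for Thbd and -0.428 to 2.35 for Serpine2.

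The share of each gene's variance over the 224 arrays that went with each factor differed between the members. For Thbd, drug condition took 23.9%, hour 13.1% and their combination 12.8%. For F3, hour took 19.9% and drug condition 15.3%. For Serpine2, hour took 32.8%, drug condition 4.62% and glucose 5.61%. The members were chosen on drug and hour patterns of these arrays, so the shares of drug condition and hour follow in part from the choice. Run took 5.76% for Thbd, 2.99% for F3 and 7.85% for Serpine2. Between 30.4% (Serpine2) and 49.1% (F3) remained among arrays of the same group. The residual SD was 1.54 for F3 and 1.36 for Thbd, above those of 95.2% and 91.8% of probes, against a median of 0.811 over all probes.

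Thbd and Serpine2 followed each other at 24 h but not at 6 h. The Pearson correlation of their group means was 0.774 over the 28 groups at 24 h and -0.0841 over the 28 groups at 6 h. Within groups, over 224 arrays, it was 0.321. F3 and Thbd gave -0.0198 at 24 h and 0.028 at 6 h, and F3 and Serpine2 gave -0.144 and 0.338. Thbd and Serpine2 were both chosen on low scores under rapamycin at 24 h, so their correlation at 24 h follows in part from the choice. Groups within a run share that run, and the drug and insulin contrasts above enter these values, so they are descriptions only.

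The genes whose 56 group means were most like each member's were listed from 6501 named genes. For Thbd the highest correlations were with Tnn (0.795), Herc4 (0.773), Ccdc80 (0.772), Dpep1 (0.755) and Nr4a1 (0.748), and the lowest with Retreg2 (-0.664), Csk (-0.659) and Mfap5 (-0.656). For F3 the highest were Gadd45g (0.785), Rnd1 (0.775), Dlc1 (0.768), Smurf1 (0.749) and Ddah1 (0.748). The lowest for F3 were Cdkn1a (-0.852), Eif2ak3 (-0.764) and Gtse1 (-0.755). For Serpine2 the highest were Fbln5 (0.84), Sdc1 (0.772), H2az1 (0.755), Stk17b (0.746) and Tk1 (0.745), and the lowest Hsd17b4 (-0.855), Acsl1 (-0.813) and Dtnb (-0.795). Cdkn1a encodes the cell cycle inhibitor p21, Gadd45g a stress response protein and Fbln5 an elastic fibre protein.

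The share of other genes of coagulation, its inhibitors, fibrinolysis and platelet inhibition called for the drugs lay near that of all probes. Of 61 genes in the list, 36 were measured, 33 of them beside the 3 members. With 100 ng/mL rapamycin at 24 h, 1 of the 33 was called higher and 0 lower, against 2.25% of all probes. That gene was Ptgir, the prostacyclin receptor (1.29, adjusted p 0.0113 by limma, lost without run B and with runs as the unit). The median difference of the 33 was 0.160, against 0.0119 over all probes. An unadjusted p under 0.05 by limma was found for 3 of the 33 and for 1509 of all 11575 probes. The 4 platelet inhibition and prostanoid genes had a median of 1.28, and 1 of them was called. Differences as large that did not pass, named after their values were seen, were those of Nt5e, an enzyme that makes adenosine (1.53, adjusted p 0.116), Serpind1, which encodes the thrombin inhibitor heparin cofactor II (1.45, 0.383), and Tbxas1, thromboxane synthase (1.27, 0.497). With 1000 ng/mL paclitaxel at 24 h, 0 of the 33 were called by limma, against 1.32% of all probes. An unadjusted p under 0.05 by limma was found for 6 of the 33 and for 1238 of all 11575 probes. The median of the 33 was -0.0793, against -0.00787 over all probes. The differences farthest from 0 there, named after their values were seen, were S100a10, a plasminogen receptor subunit (-1.24, adjusted p 0.223), Ptgir (1.04, 0.0913) and Fgb, the fibrinogen beta chain (-0.982, 0.11).

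At 6 h with 100 ng/mL rapamycin, S100a10 (1.57, adjusted p 0.0278) and Ptgis, prostacyclin synthase (1.20, adjusted p 0.00707), were called higher of the 33, where 5.08% of probes were called by limma. Both calls were lost without run A and without run D, and that of S100a10 also without run C. The median of the 4 platelet inhibition and prostanoid genes was 1.30 at 6 h, against -0.0221 over all probes. With insulin at 24 h, Anxa2, another plasminogen receptor subunit, rose (0.596, adjusted p 0.00465) and Ptgir fell (-0.847, adjusted p 0.000559), by limma. Both were lost without run A and without run C. At 6 h with insulin F2r, which encodes a thrombin receptor, was called lower (-0.622, adjusted p 0.0145 by limma), which was likewise lost without run A and without run C. With runs as the unit none of these calls for rapamycin or insulin was kept.

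In 25 mM glucose at 24 h, 2 of the 33 rose and 2 fell, where 10% of all probes were called, so the count lies near the share over all probes. Vkorc1, which recycles vitamin K, rose by 0.779 (adjusted p 0.000301 by limma), and Anxa5, an anticoagulant annexin, by 0.843 (adjusted p 0.00368, lost without run D). Ptgis (-0.497, adjusted p 0.0324) and F8, coagulation factor VIII (-0.406, adjusted p 0.0405), were called lower. F8 lost its call without any 1 of the 4 runs, and Ptgis without run A, C or D. With runs as the unit all 4 lost their calls, Vkorc1 with an adjusted p of 0.144 by limma. At 6 h Ptgis fell by 0.921 in 25 mM glucose (adjusted p 2.7e-05 by limma, also called with runs as the unit), in a contrast where F3 was the other gene called lower of the 36.

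Between 24 and 6 h over all conditions, 5 of the 33 were called higher and 3 lower, against 41.3% of all probes. Nt5e rose by 1.62, Anxa2 by 0.904, F8 by 0.51 and Ggcx, the vitamin K-dependent carboxylase, by 0.432. Ptgis (-0.806) and Fga (-0.592), which encodes the fibrinogen alpha chain, fell. The call of Ggcx was lost without run B, C or D, and that of Fga without run A or C. With runs as the unit Nt5e, F8, Ggcx and Fga lost their calls, while Anxa2 and Ptgis did not.

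**Figure D4:**
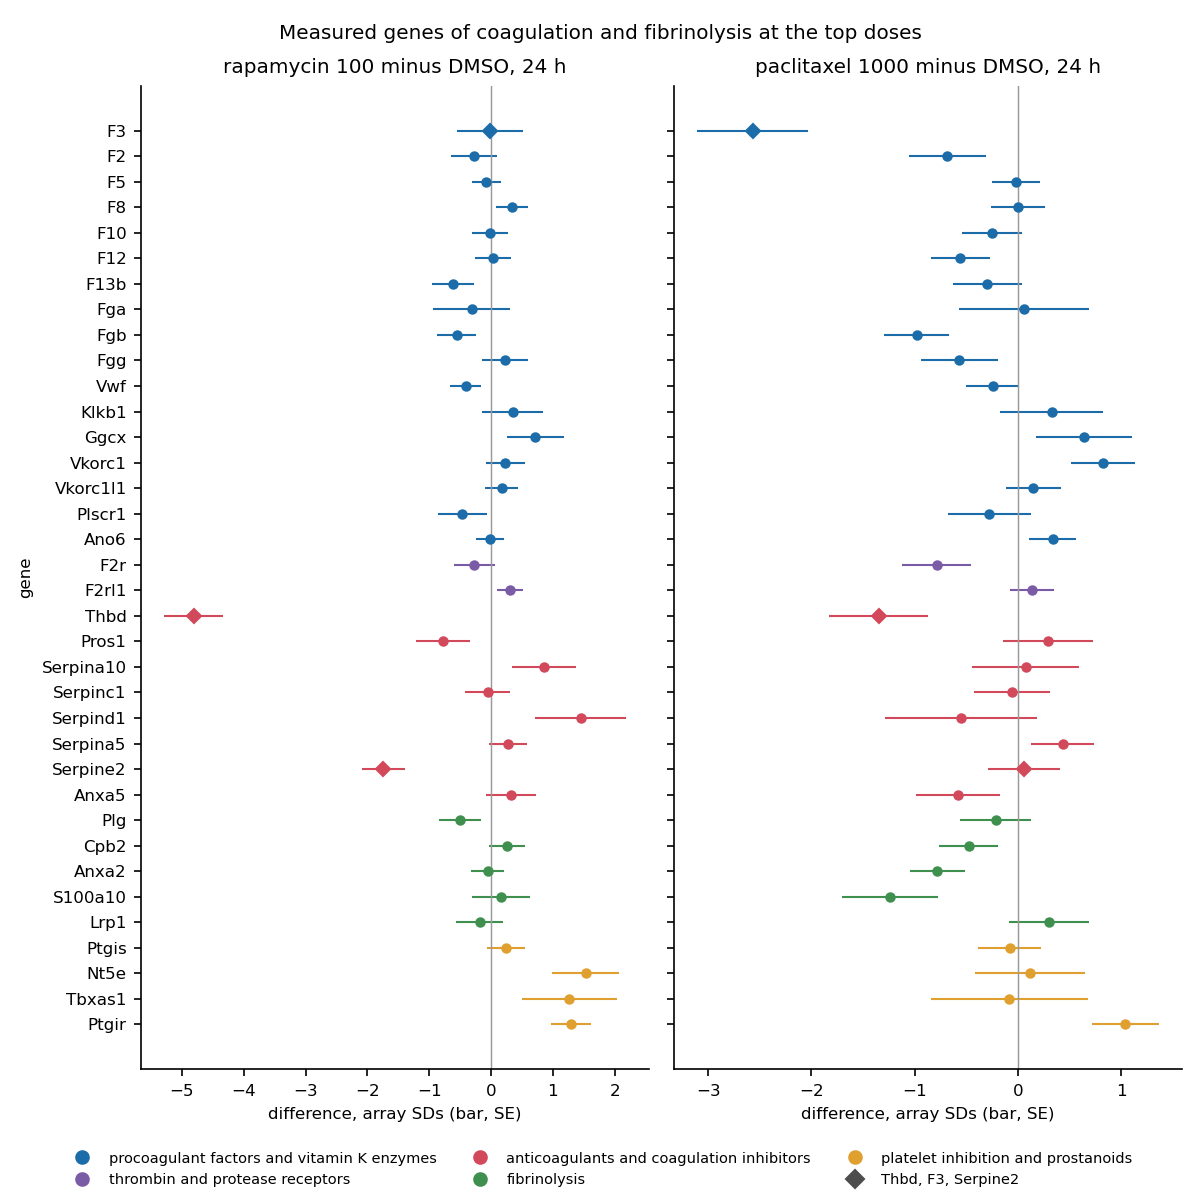
Difference from DMSO in standardized score (array SDs, horizontal axis) at 24 h for the 36 measured genes of the coagulation list (vertical axis), with 100 ng/mL rapamycin on the left and 1000 ng/mL paclitaxel on the right. Points with bars are differences ± SE and diamonds are the 3 members. Thbd (-4.81) and Serpine2 (-1.74) lie at the low end with rapamycin and F3 (-2.57) at the low end with paclitaxel, which is how they were chosen, while the others lie no farther from 0 than 1.53 (Nt5e) with rapamycin and -1.24 (S100a10) with paclitaxel.

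Of 20 transcription factors known to act on tissue factor or thrombomodulin genes, 12 were measured. Klf4 and Klf6 encode zinc-finger factors of the Krüppel family, and Klf4 is known as an activator of thrombomodulin in endothelium. With 100 ng/mL rapamycin at 6 h both were called higher, 2 of the 12, where 5.08% of all probes were called. Klf4 rose by 2.25 (adjusted p 1.66e-06 by limma) and Klf6 by 2.50 (adjusted p 5.29e-09). Neither lost its call without any 1 run or with runs as the unit. At 24 h Klf6 was called higher by 1.17 (adjusted p 0.0301 by limma), 1 of the 12, where 2.25% of all probes were called. That call was lost without run A, B or C and with runs as the unit. With 1000 ng/mL paclitaxel at 24 h, 0 of the 12 were called by limma, against 1.32% of all probes. An unadjusted p under 0.05 by limma was found for 4 of the 12 and for 1238 of all 11575 probes. The part of Klf4 and Klf6 in the Thbd differences was not tested.

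Egr1, an immediate early factor known to act on the tissue factor promoter, fell in 25 mM glucose at 6 h by 1.24 (adjusted p 0.00441 by limma). It was also called with runs as the unit, and was 1 of the 12, where 3.53% of all probes were called. F3 fell in that contrast too, with a call lost without run A, B or C and with runs as the unit. The part of Egr1 in the F3 difference was not tested. At 24 h in 25 mM glucose Klf4 (-0.818) and Hif1a (-0.89) were called lower, 2 of the 12, where 10% of all probes were called. Klf4 lost the call without run B or D and Hif1a without run B, and both with runs as the unit. With insulin at 24 h, 0 of the 12 were called by limma, against 3.98% of all probes. An unadjusted p under 0.05 by limma was found for 3 of the 12 and for 1726 of all 11575 probes. Between 24 and 6 h over all conditions, 4 were called higher and 4 lower, where 41.3% of all probes were called. Egr1 rose by 2.16, Nfkb1 by 1.18 and Fos by 1.16, while Rara (-0.795), Klf6 (-0.744) and Jun (-0.556) fell. Fos lost its call without run A or C. With runs as the unit Egr1, Nfkb1, Fos, Klf6 and Jun lost their calls and Rara did not.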

How the data were processed

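Members and gene lists were chosen with earlier results of these data known. The deposited table holds 11575 probes on 224 two-colour Agilent arrays as standardized scores. Per the labels and design text, the authors applied loess, filtered probes on an intensity of 30 and on 70% good data, filled gaps from 3 nearest neighbours, removed principal components that separated the runs and standardized the scores. Removing such components can lower the spread between runs that the p-values rest on. The number of arrays limits precision. limma 3.58.1 in R 4.3.3 fitted 56 group means with run as a block to all probes of all arrays, as planned for the deposited values. P-values were two-sided and Benjamini-Hochberg adjusted over all probes within each of 63 comparisons. A comparison counted as used in the choice of a member where the member was among the 10 largest called rises or falls. Only comparisons uncorrelated with those, and for Thbd and Serpine2 without rapamycin arrays at 24 h on 1 side of a drug contrast, got a p-value, 34 for Thbd (2 called), 46 for F3 (3 called) and 35 for Serpine2 (2 called). Some of the 63 comparisons called 0 of all probes, among them insulin in DMSO cells and all terms for drug by insulin or glucose. These counts of calls are therefore not a result about the members. Pairs are arrays of the same run and remaining conditions, and intervals are 95% intervals of the fit. Named genes were the members, up to 6 called genes of the coagulation and regulator lists per comparison, and the 5 highest and 3 lowest correlations with each member. The platform annotation gave a single symbol to 7473 probes, more than one to 2 and no symbol to 4100. Alternatives were no run block, a block of run by hour, array weights, normal scores, the compared groups alone, runs as the unit, each run left out, and repeat or nearly identical arrays left out.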

Additional observations from a re-analysis of the deposited data

Results flagged for a closer look

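In groups of 4 arrays, 10 of 168 sets held 1 array far from the other 3, with a gap over 0.829 of the range, and chance alone flags about 1 in 20. For Thbd these were a score of 0.381 in run B of DMSO with insulin, 25 mM glucose and 6 h (the others -0.789 to -0.626), -1.923 in run B of 0.01 ng/mL paclitaxel with insulin, 5 mM glucose and 6 h (the others 0.395 to 0.653), and -1.574 in run D of 1 ng/mL rapamycin with insulin, 5 mM glucose and 24 h (the others -0.095 to 0.047). For F3 they were 3.277 in run C of 0.01 ng/mL paclitaxel with vehicle, 5 mM glucose and 24 h (the others 0.597 to 0.971), and 3.781 in run B of 0.01 ng/mL rapamycin with vehicle, 25 mM glucose and 24 h (the others 0.241 to 0.717). The third F3 array scored -2.486 in run A of 0.01 ng/mL rapamycin with insulin, 25 mM glucose and 6 h (the others -0.578 to -0.404), and it is 1 of the 2 nearly identical arrays. For Serpine2 they were 0.272 in run C of 0.01 ng/mL paclitaxel with vehicle, 25 mM glucose and 24 h (the others -2.351 to -2.076), and -1.229 in run D of 1 ng/mL paclitaxel with insulin, 5 mM glucose and 24 h (the others 1.311 to 1.432). With 1 ng/mL rapamycin, insulin and 25 mM glucose, Serpine2 scored -0.64 in run A at 24 h (the others -2.77 to -2.566) and 2.238 in run C at 6 h (the others 0.119 to 0.451).

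The difference between 24 and 6 h was not the same with 100 ng/mL rapamycin as with DMSO, by -4.189 for Thbd and -2.288 for Serpine2. Both values led to the choice of these genes and have no test of their own.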

How the results depend on the processing

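Over 60 results on the 3 genes and 11 other settings, no called value changed sign. No call changed without the run block, with a block of run by hour, with array weights, with normal scores or with the compared groups alone. Leaving out 1 run, the difference of 100 ng/mL rapamycin from DMSO at 24 h ranged from -5.08 to -4.50 for Thbd and from -2.06 to -1.29 for Serpine2, and that of 1000 ng/mL paclitaxel for F3 from -2.87 to -2.32. The F3 hour difference ranged from 1.52 to 1.97 and the Serpine2 glucose difference at 24 h from -1.13 to -0.929. Of the 7 called results 5 lost their calls without at least 1 run: the insulin difference at 24 h ranged from 0.741 to 1.65 for Thbd and from 0.680 to 1.16 for Serpine2, the F3 glucose difference at 6 h from -1.50 to -0.491, the Thbd hour difference with 1000 ng/mL paclitaxel from 1.30 to 2.58 and the F3 hour difference with 100 ng/mL rapamycin from 1.59 to 1.90. With each run taken as the unit, which leaves 4 values a contrast, the insulin differences of Thbd (1.24) and Serpine2 (0.894), the glucose differences of F3 at 6 h (-0.995) and Serpine2 at 24 h (-1.06) and the Thbd hour difference (1.81) lost their calls. Without repeat and nearly identical arrays the F3 glucose difference at 6 h was -0.925 and no longer called. The cause was not tested.

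The run numbers were checked as a pairing. Deviations from the group means correlated on average at 0.021 for arrays of the same run. The value was 0.0654 for the same run and hour, and -0.0128 for other runs. The authors had removed components that separated the runs, so low values here cannot show what arrays of a run share. Without the replicate block the adjusted p by limma was 0.00164 for Thbd and insulin, 0.00343 for Serpine2 and insulin, 8.59e-05 for Serpine2 and glucose, 0.0311 for F3 and glucose at 6 h and 2.09e-12 for F3 and hour. The differences themselves could not move, since every group held an array from each run.

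Counts of probes called also moved between the settings. For insulin at 24 h limma called 461 probes, 6 without run C, 40 without run A, 682 without run D, and 0 with runs as the unit, where 1108 had an unadjusted p under 0.05. For glucose at 24 h it called 1159, 573 without run D, and 0 with runs as the unit (1591 unadjusted). For 100 ng/mL rapamycin at 24 h it called 261, and 59 with runs as the unit. For 1000 ng/mL paclitaxel at 24 h it called 153, and 35 without run D. For hour over all conditions it called 4777, and 300 with runs as the unit. Each gene had 1 probe, so no other probe could be used.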
